A study of Mus musculus with 6 samples.

Results

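The genes described here encode the non-collagen part of the extracellular matrix: the fibulins, fibrillins and other proteins of elastic fibers, fibronectin, the tenascins and thrombospondins, further matricellular proteins, and the proteoglycans. They are 47 genes listed by name, a list drawn up with earlier results of these data known, and all 47 are among the 24062 genes counted in the deposited data. Bulk RNA-seq libraries of 6 mice were compared, 3 from *Nf1fl/fl;DhhCre* mice and 3 labelled as a double knockout of *Runx1* and *Runx3*, all on a C57BL/6-I129 background. The first group carries floxed *Nf1* and a *Dhh* promoter-driven Cre, and is the neurofibroma model of the study. For the second group the genotype label lists floxed *Runx1*, floxed *Runx3* and DhhCre but not *Nf1fl/fl*, while the RNA protocol names Rx1fl/fl;Rx3fl/fl;Nf1fl/fl;DhhCre, so that floxed *Nf1* and Cre are shared by both groups if the protocol holds. The label of the tissue differs too, dorsal root ganglion (DRG) for the first group and neurofibroma tumor for the second, so that genotype and labelled tissue cannot be told apart. The RNA protocol names DRG/tumors for both groups, and sensory neuron markers summed to 524 to 1046 CPM (counts scaled to a common library total) in the group labelled DRG and to 2472 to 5436 CPM in the group labelled tumor, so that the group labelled DRG had the lower sums. Cre expressed from *Dhh* acts in Schwann cells (SCs) and their precursors, so that cells outside that lineage are not its target. Which cells of these samples had lost the floxed genes was not measured. The labels give no age for these mice. The labels do not say whether they were littermates, and the p-values measure the spread between these 6 libraries.

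Neurofibromas are rich in matrix laid down by fibroblasts, SCs and perineurial cells around axons. Fibrillins assemble into microfibrils on which elastin is deposited with the help of fibulins, and latent TGF-β binding proteins anchor inactive TGF-β to the same fibers. Fibronectin is the scaffold on which many other matrix proteins assemble, whereas tenascins, thrombospondins and periostin are matricellular proteins that modify how cells attach and respond to growth factors. Small leucine-rich proteoglycans bind collagen fibrils and set their diameter. Hyalectans such as versican carry chondroitin sulfate chains and bind hyaluronan, and several of them are best known from the central nervous system, where they surround neurons in perineuronal nets.

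Library totals were 12439296 to 16682194 counts, and 3 counts in a library corresponded to 0.179 to 0.246 CPM, which bounds counting error only. The levels of the targeted genes are given beside the labels. They cannot check the deletion, because bulk counts include cells that Cre does not target. *Runx1* was at 131, 141 and 171 CPM in *Nf1fl/fl;DhhCre* replicates 1 to 3 and at 83.9, 78.8 and 185 CPM in the double-knockout replicates, so that it was not reduced in replicate 3 of that group. *Runx3* was at 19.9, 15.1 and 29.9 CPM against 13.5, 10.3 and 12.1 CPM, lower in 3 of 3 libraries labelled double knockout than in any other. Neither was called (log2 fold change -0.44 and limma-voom adjusted p = 0.370 for *Runx1*, -0.79 and 0.104 for *Runx3*). *Nf1* was at 302 ± 30.8 CPM (SD, n = 3) against 290.02 ± 44.4 CPM (SD, n = 3), which does not settle whether it was floxed in both groups. Because these levels, with *Runx1* not reduced in replicate 3, do not settle which libraries carried the deletion, the second group is named by its label. By its label that replicate also came from another sequencing run than the other 5 libraries, although names within the deposited records disagree on which mouse it is, and the run and that mouse cannot be told apart. All 6 leave-one-out fits are used below.

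Of the 47 genes, 46 had enough counts to be tested and *Acan* had not. In limma-voom with Benjamini-Hochberg adjustment over 15652 genes, 19 of the 46 fell in the libraries labelled double knockout by more than 2-fold at an adjusted p under 0.05, where 5.36% of all genes tested did. Another 4 rose (*Tnr*, *Ogn*, *Ncan* and *Bcan*), a share close to the 8.03% of all genes that did, and 23 were not called. The fitted log2 fold change was below 0 for 36 of the 46 members, against 48.9% of all genes, and its median was -1.05 against 0.02 over all genes. In 26 members every library labelled double knockout lay below every *Nf1fl/fl;DhhCre* library, which held for 20.5% of all genes. In 4 members every such library lay above, a smaller share than the 21.8% of all genes for which this held. The plot of fold changes gives the value and standard error of each tested member.

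**Figure D1:**
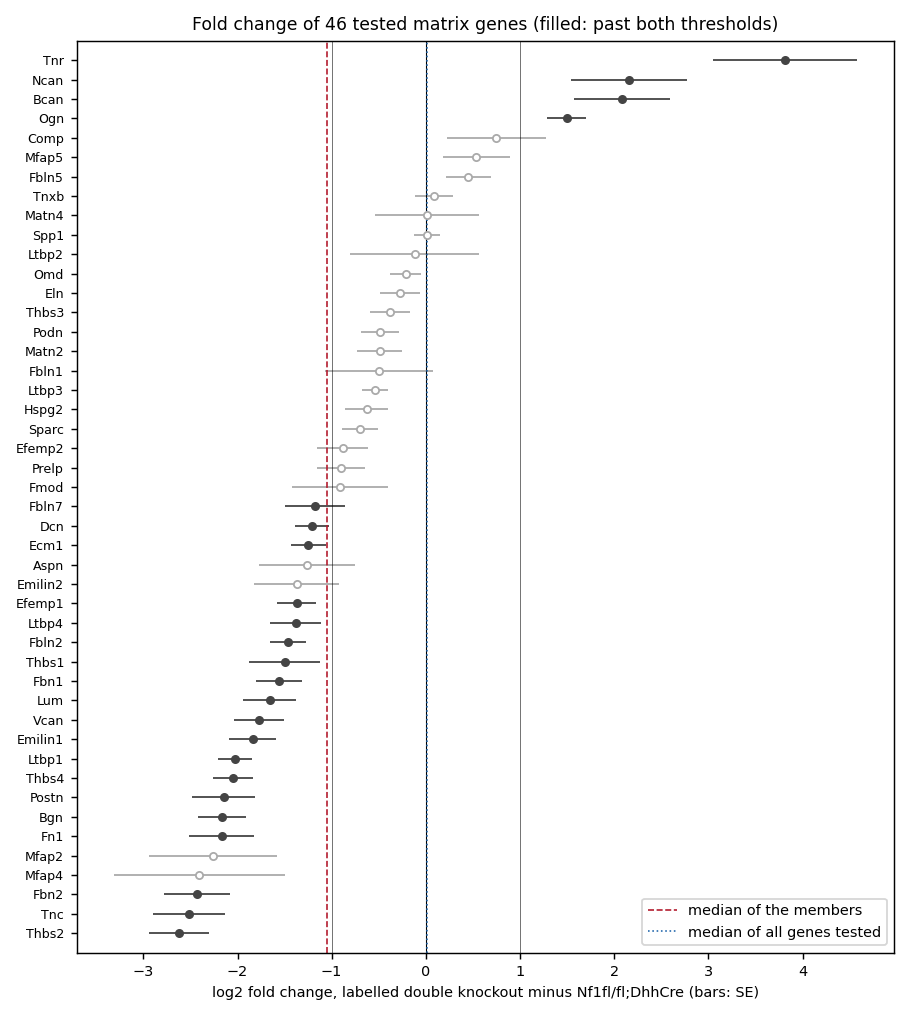
Log2 fold change (libraries labelled double knockout minus *Nf1fl/fl;DhhCre*) of the 46 tested members in order of size, from limma-voom, with bars of 1 standard error. Filled points passed both thresholds, solid vertical lines mark 0 and a 2-fold change, and the dashed and dotted lines mark the median of the members (-1.05) and of all genes (0.02). The values run from -2.62 for *Thbs2* to 3.81 for *Tnr*, and 36 lie left of 0.

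The members together took 2.54, 2.32 and 2.73% of all counts in the *Nf1fl/fl;DhhCre* libraries and 1.38, 0.842 and 0.946% in the libraries labelled double knockout, without overlap. In CPM scaled by trimmed mean of M values (TMM), their sum was 24595 ± 1685 (SD, n = 3) in the first group and 10785 ± 2535 (SD, n = 3) in the second. The 6 members with the highest mean CPM in the *Nf1fl/fl;DhhCre* libraries (*Sparc*, *Dcn*, *Fn1*, *Bgn*, *Lum* and *Postn*) made up 65.1 to 68.6% of the sum there and 58.2 to 59.8% in the other group. Among the 19 members that fell, replicate 2 labelled double knockout had the lowest value in 18 and replicate 1 the highest of its group in 17. Replicate 2 was thus the furthest from the *Nf1fl/fl;DhhCre* libraries and replicate 1 the nearest, while replicate 3, with its high *Runx1* value, lay between them in most of these genes.

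**Figure D2:**
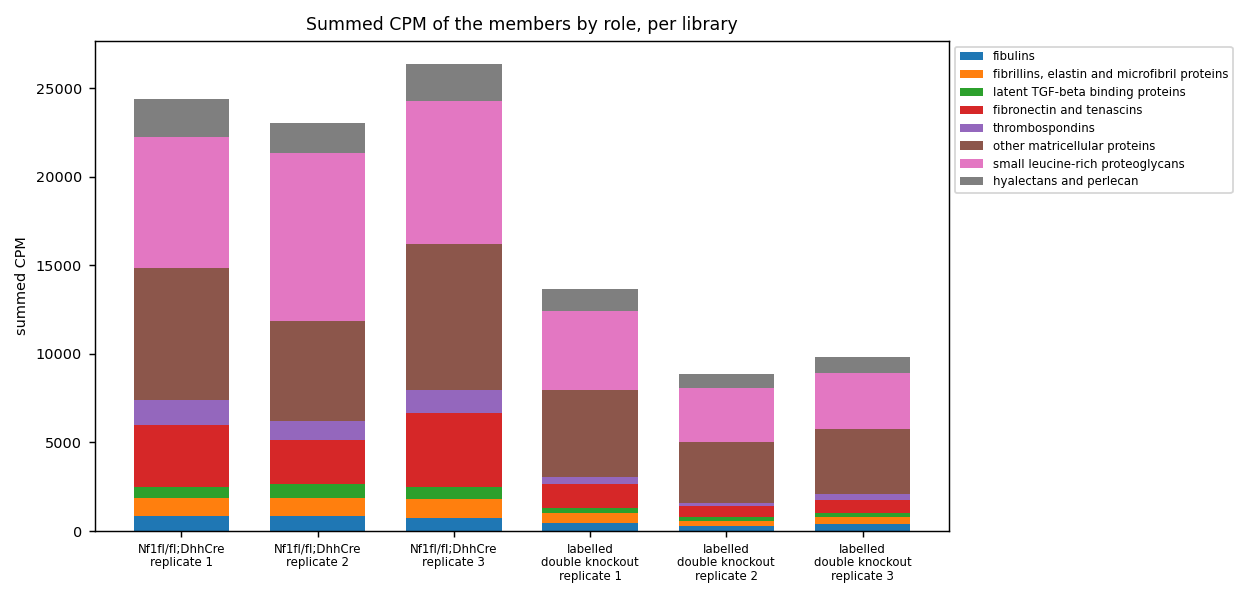
Summed CPM of the members in each library, stacked by role, with the vertical axis in TMM-scaled CPM from 0. The bars of the *Nf1fl/fl;DhhCre* libraries reach 24399, 23017 and 26370 CPM and those of the libraries labelled double knockout 13657, 8860 and 9837 CPM.

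In bulk RNA, fewer cells of a type and less RNA per cell cannot be told apart, and lists of cell type markers moved with the members. Of 8 fibroblast markers 2 fell (*Pdgfra* and *Cd34*), with a summed level of 1662 to 1845 CPM in the *Nf1fl/fl;DhhCre* libraries and 722 to 1270 CPM in those labelled double knockout. Of 7 macrophage markers 5 fell, and their sum went from 447 to 960 CPM down to 104 to 240 CPM. All 9 sensory neuron markers rose, and their sum was 524 to 1046 CPM against 2472 to 5436 CPM. Of 5 markers of myelinating SCs 4 rose, with sums of 441 to 583 CPM and 1154 to 1501 CPM. Of 6 general SC markers only *S100b* was called, and it rose. *Sox10*, another marker of that list, had a log2 fold change of 0.10. In limma-voom the number of these calls changed when single libraries were left out. Without *Nf1fl/fl;DhhCre* replicate 1, no fibroblast or macrophage marker was called, 1 sensory neuron marker was and 3 of myelinating SCs were. Calls fell over all genes too, with 1.13% called lower against 5.36% with all libraries. *Pdgfra* had a log2 fold change of -1.20 without that library and -1.23 with all. *Cd34* was at -1.10 and -1.16, and the neuron marker *Rbfox3* at 2.25 and 2.38, so that these fold changes moved little. Over the 6 leave-one-out fits the calls ranged from 0 to 4 fibroblast, 0 to 6 macrophage, 1 to 9 sensory neuron and 3 to 5 myelinating SC markers, and with library size only 4 fibroblast markers were called. Sensory neuron calls were 3 without *Nf1fl/fl;DhhCre* replicate 3, and macrophage calls 2 without double-knockout replicate 2. *Pdgfra* was called in 1 of the 6 fits. The part of these shifts in the members' changes was not tested.

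The perineurial, endothelial, mural, tendon and cartilage, bone, adipocyte and skeletal muscle lists each held at most 1 call in limma-voom over all libraries. Of 6 perineurial markers 1 fell (*Cldn1*), with sums of 1075 to 1844 CPM and 680 to 931 CPM. DESeq2 and sample quality weights also called *Msln* lower. *Cldn1* alone was at a mean of 719 CPM against 178 CPM. *Slc2a1* (log2 fold change -0.13), *Tjp1* (-0.14), *Itgb4* (-0.16) and *Lypd2* (1.44) overlapped between the groups. The 4 endothelial and the 5 mural markers held no call, with sums of 129 to 166 CPM against 104 to 220 CPM and of 191 to 293 CPM against 185 to 559 CPM. The mural marker *Rgs5* was just under 2-fold (0.92, limma-voom adjusted p = 0.0396) and was called higher with sample quality weights and without *Nf1fl/fl;DhhCre* replicate 2 or double-knockout replicate 3, and the endothelial *Kdr* was called higher without the latter. Of 3 tested tendon and cartilage markers *Col2a1* fell, and the list summed to 52.6 to 91.2 CPM against 18.6 to 25.5 CPM. *Col2a1* alone was at a mean of 67.6 CPM against 14.6 CPM. The other tested markers, *Scx* (log2 fold change 1.10) and *Mkx* (-0.57), were not called. The calls of *Cldn1* and *Col2a1* were lost without *Nf1fl/fl;DhhCre* replicate 1 (limma-voom adjusted p = 0.0566 and 0.0541). Neither the bone markers, of which 2 of 4 were tested and which summed over all 4 to 1.39 to 31.4 CPM against 1.72 to 7.45 CPM, nor the 3 adipocyte markers, at 12.3 to 108 CPM against 57.8 to 477 CPM, held a call. Skeletal muscle markers, none of 6 called, summed to 2068 CPM in *Nf1fl/fl;DhhCre* replicate 2 and to 10718 CPM in double-knockout replicate 2, while the other libraries were at 4.23 to 57.6 CPM. The part of these lists in the members' changes was not tested.

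*Runx1* and *Runx3* encode transcription factors whose DNA core is TGTGGT, or TGCGGT in a variant. The start regions of the members were therefore searched for both cores on both strands. RefSeq windows of 300 bases (250 before to 50 after a start, GRCm38.p6) were found for 37 of the 47 members. A core lay in 8 of their 51 windows (15.7%) and in 22.4% of all 32851 windows of that length. Among windows of members that fell 3 of 19 held a core (15.8%), and among the other members' windows 5 of 32 (15.6%), so that the shares in the members that fell and in the rest were close. The 8 members were *Emilin1*, *Ltbp1* and *Vcan*, which fell, *Ogn*, which rose, and *Fmod*, *Mfap2*, *Sparc* and *Spp1*, which were not called. The 250 bases before the start are given for *Ltbp1*, the member with cores at a pair of places, for *Vcan* and, as the contrast that rose, for *Ogn*. Capitals mark the core, which reads ACCGCA or ACCACA where it lies on the opposite strand. A match describes letters and is not a measured binding site.
*Ltbp1* (chr17:75178531-75178780, plus strand, before a RefSeq start inside the longer gene, cores 71 and 33 bases upstream): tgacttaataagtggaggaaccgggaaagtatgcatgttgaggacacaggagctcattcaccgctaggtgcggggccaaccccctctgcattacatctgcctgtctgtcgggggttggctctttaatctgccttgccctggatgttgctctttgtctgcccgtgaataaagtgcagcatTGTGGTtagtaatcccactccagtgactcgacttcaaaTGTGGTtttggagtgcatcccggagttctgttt
*Vcan* (chr13:89742513-89742762, minus strand, core 34 bases upstream): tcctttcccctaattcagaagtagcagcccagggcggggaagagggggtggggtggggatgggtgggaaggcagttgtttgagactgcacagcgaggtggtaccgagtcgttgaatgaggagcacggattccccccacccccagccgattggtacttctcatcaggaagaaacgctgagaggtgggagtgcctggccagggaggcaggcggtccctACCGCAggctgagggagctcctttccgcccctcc
*Ogn* (chr13:49607765-49608014, plus strand, core 65 bases upstream): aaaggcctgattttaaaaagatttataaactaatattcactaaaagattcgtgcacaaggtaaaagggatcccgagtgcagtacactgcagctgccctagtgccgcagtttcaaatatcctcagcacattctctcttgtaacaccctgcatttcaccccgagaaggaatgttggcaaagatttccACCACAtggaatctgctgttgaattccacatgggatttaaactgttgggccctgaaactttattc

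The fibrillins and their partners form the microfibril. From here on the values of each gene are TMM-scaled CPM of replicates 1 to 3, first of the *Nf1fl/fl;DhhCre* group and then of the group labelled double knockout. In the list of fibrillins, elastin and microfibril proteins 3 of 8 tested members fell and none rose, with a median log2 fold change of -1.70. *Fbn1* (chr2:125300594-125507993), which encodes the main fibrillin of microfibrils, was at 698, 671 and 855 CPM against 358, 179 and 245 CPM (log2 fold change -1.56, SE 0.24, limma-voom adjusted p = 0.0114). *Fbn2*, the fibrillin prominent in development, was at 230.3, 192 and 165 CPM against 54.6, 18.8 and 44.3 CPM (-2.43, SE 0.35, limma-voom adjusted p = 0.0100). *Emilin1* (chr5:30913402-30921277), which encodes a glycoprotein at the interface of elastin and microfibrils, was at 13.9, 11.5 and 13.4 CPM against 3.66, 3.20 and 3.83 CPM (-1.84, SE 0.25, limma-voom adjusted p = 0.00931). In these 3 genes no library of one group reached the range of the other, and in both fibrillins the second group spread widely, with replicate 2 lowest. The *Fbn1* call was lost without *Nf1fl/fl;DhhCre* replicate 1 (limma-voom adjusted p = 0.0508).

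Elastin itself was not called. *Eln* was at 16.0, 13.9 and 16.8 CPM against 15.05, 14.0 and 10.3 CPM, with overlapping groups (-0.27, SE 0.21, limma-voom adjusted p = 0.395). *Mfap2* and *Mfap4*, microfibril-associated proteins, had large fitted differences at low levels. *Mfap2* was at 2.91, 3.93 and 3.20 CPM against 0.955, 0.164 and 1.45 CPM (-2.26, SE 0.68, limma-voom adjusted p = 0.0567), and the value of 0.164 CPM rests on 2 counts. *Mfap4* was at 10.1, 3.39 and 9.03 CPM against 3.66, 1.81 and 0.3298 CPM (-2.40, SE 0.91, limma-voom adjusted p = 0.106). DESeq2 called both lower, and sample quality weights called *Mfap2* lower. *Mfap5* leaned the other way, at 43.9, 116 and 52.3 CPM against 115, 79.2 and 91.9 CPM, with replicate 2 of the *Nf1fl/fl;DhhCre* group as high as the highest of the other group. Without that replicate *Mfap5* was called higher (1.02, limma-voom adjusted p = 0.0190) and *Mfap4* lower (-2.92, limma-voom adjusted p = 0.0404). *Emilin2* was at 8.87, 9.998 and 6.66 CPM against 6.69, 1.72 and 2.90 CPM (-1.37, SE 0.45, limma-voom adjusted p = 0.0734), and it was called lower without double-knockout replicate 1 (-1.81, limma-voom adjusted p = 0.0431).

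Of the 6 fibulins 3 fell, with a median log2 fold change of -1.03. *Fbln2* (chr6:91212455-91272540), which binds fibronectin, fibrillin and basement membrane proteins, was at 195, 283 and 234 CPM against 100.01, 72.0 and 85.5 CPM (-1.46, SE 0.19, limma-voom adjusted p = 0.00848). *Efemp1* (chr11:28853204-28926743), also called fibulin-3, was at 476, 389 and 335 CPM against 188, 119 and 159.5 CPM (-1.37, SE 0.20, limma-voom adjusted p = 0.0107). Both were called in each leave-one-out fit, and in both the lowest *Nf1fl/fl;DhhCre* library stood well above the highest of the other group. *Fbln7* was at 77.4, 42.6 and 70.6 CPM against 37.8, 18.6 and 27.9 CPM (-1.18, SE 0.32, limma-voom adjusted p = 0.0429). There the gap between the groups was small, and the call was lost in 4 leave-one-out fits: without *Nf1fl/fl;DhhCre* replicate 1 (limma-voom adjusted p = 0.131) or 3 (0.121), and without double-knockout replicate 2 (0.125) or 3 (0.0981). Those needed for elastic fiber assembly were not called. *Fbln5* was at 54.2, 72.0 and 44.8 CPM against 91.7, 57.5 and 84.6 CPM (0.45, SE 0.24), and *Efemp2* (fibulin-4) at 14.3, 13.4 and 20.1 CPM against 9.16, 6.32 and 10.1 CPM (-0.88, SE 0.27, limma-voom adjusted p = 0.0600). *Fbln1* was low and variable, at 7.76, 20.2 and 4.55 CPM against 6.53, 4.93 and 7.91 CPM.

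Latent TGF-β binding proteins had fold changes below 0 in all 4 members, and 2 fell. *Ltbp1* (chr17:75005568-75392512), which tethers latent TGF-β to fibronectin and fibrillin fibers and whose internal start has 2 cores while the window at its first start has 0, was at 349, 349 and 329 CPM against 96.5, 62.0 and 97.5 CPM (-2.03, SE 0.18, limma-voom adjusted p = 0.00598). This was the smallest adjusted p among the members, and the SD of the *Nf1fl/fl;DhhCre* libraries was 11.3 CPM (n = 3). *Ltbp4* (chr7:27305136-27337692), which also serves elastin assembly, was at 181, 355 and 253 CPM against 122, 90.8 and 83.8 CPM (-1.38, SE 0.27, limma-voom adjusted p = 0.0175), and its call was lost without *Nf1fl/fl;DhhCre* replicate 3 (limma-voom adjusted p = 0.0618) and without double-knockout replicate 2 (0.0572). *Ltbp3* was lower in every library labelled double knockout, at 73.1, 84.4 and 85.5 CPM against 53.6, 61.6 and 52.0 CPM, and passed the adjusted p but not the fold threshold (-0.54, SE 0.14, limma-voom adjusted p = 0.0343). *Ltbp2* was set apart by 1 library, at 7.48, 44.8 and 9.93 CPM against 13.9, 22.3 and 9.70 CPM (-0.12, SE 0.68).

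**Figure D3:**
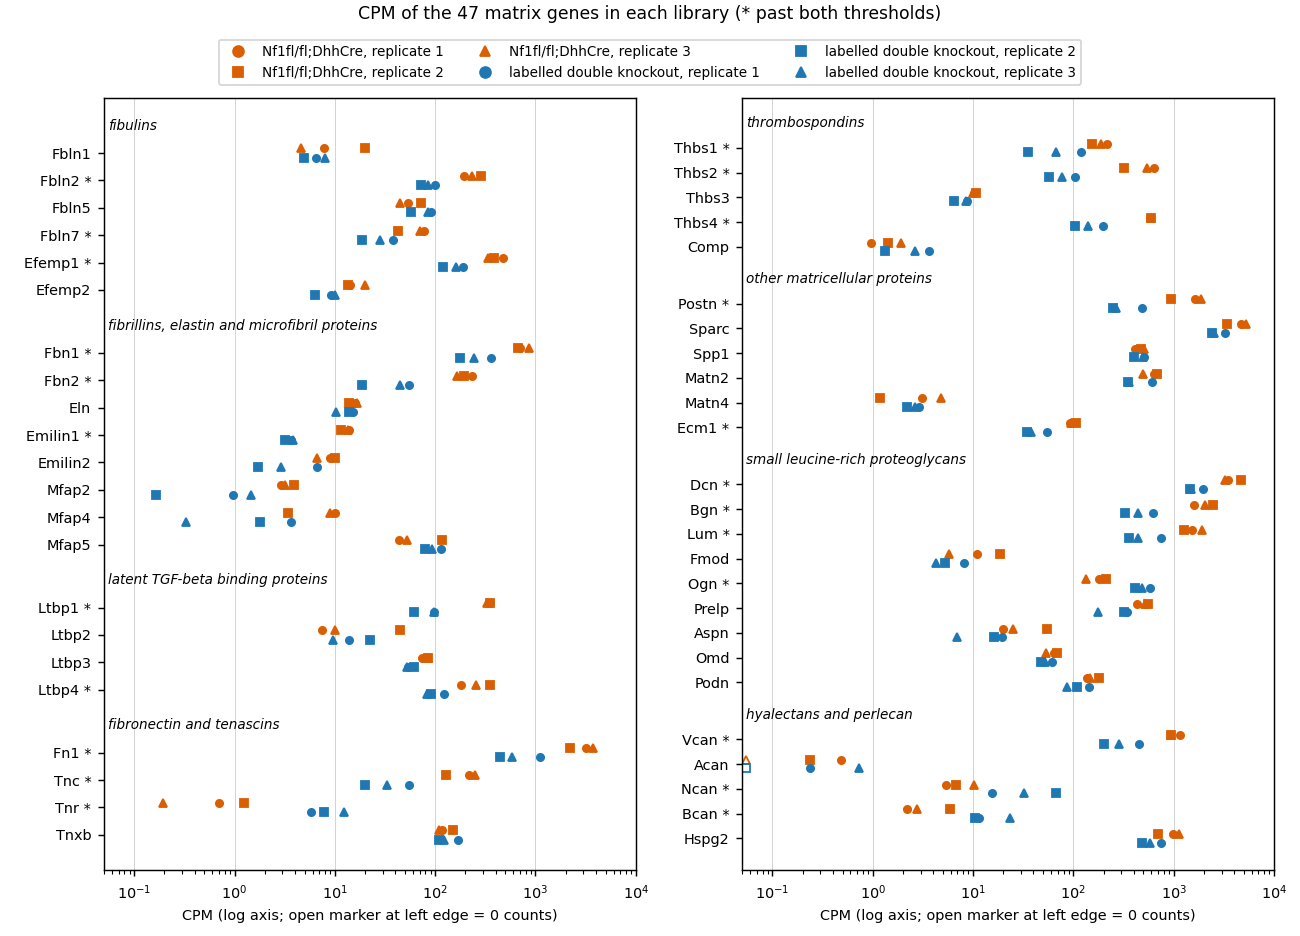
CPM of the members in each library on a log10 axis, 3 *Nf1fl/fl;DhhCre* libraries and 3 labelled double knockout, grouped by role. An asterisk marks the members past both thresholds, and open markers at the left edge are values of 0 counts. Levels reach from 0 counts for *Acan* to 5258 CPM for *Sparc*.

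Fibronectin and *Tnc* fell, and *Tnr* rose. *Fn1* (chr1:71585520-71653200) was at 3180.5, 2200.3 and 3775 CPM against 1121, 442 and 587 CPM (-2.17, SE 0.35, limma-voom adjusted p = 0.0120). *Tnc* (chr4:63959785-64047015), the tenascin of injured and remodeling tissue, was at 215, 129.6 and 248 CPM against 54.5, 20.2 and 33.3 CPM (-2.51, SE 0.38, limma-voom adjusted p = 0.0111). Replicate 2 was the lowest of its group in both genes and in both groups. Each call was lost without *Nf1fl/fl;DhhCre* replicate 1, by a small margin (limma-voom adjusted p = 0.0548 for *Fn1* and 0.0514 for *Tnc*). *Tnr* (chr1:159523769-159931729), tenascin-R of perineuronal nets, was at 0.693, 1.25 and 0.192 CPM against 5.73, 7.802 and 12.4 CPM (3.81, SE 0.77, limma-voom adjusted p = 0.0190), a mean 12.1-fold higher at a low level. The *Nf1fl/fl;DhhCre* values rest on 3 to 21 counts, and the *Tnr* call was lost without *Nf1fl/fl;DhhCre* replicate 1 (limma-voom adjusted p = 0.0746) or 3 (0.0523), and without double-knockout replicate 2 (0.0506). *Tnxb*, a tenascin of loose connective tissue, was at 117, 149 and 110.0 CPM against 171, 110.3 and 122 CPM, with overlapping groups.

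Of the 5 thrombospondins 3 fell, with a median log2 fold change of -1.5. *Thbs2* (chr17:14665500-14694235), an inhibitor of vessel growth, had the largest decrease of all members, at 636, 317 and 539.9 CPM against 105, 56.8 and 77.4 CPM (-2.62, SE 0.32, limma-voom adjusted p = 0.00805), a mean 6.25-fold lower. *Thbs4* (chr13:92751590-92794818), known from tendon, muscle and injured sensory ganglia, was at 584, 594 and 591 CPM against 197, 105 and 139.6 CPM (-2.05, SE 0.21, limma-voom adjusted p = 0.00613). The SD of *Thbs4* in the first group was 5.09 CPM (n = 3), whereas that of *Thbs2* was 164 CPM (n = 3). *Thbs1*, an activator of latent TGF-β, was at 219, 155 and 188 CPM against 118, 35.2 and 66.6 CPM (-1.5, SE 0.38, limma-voom adjusted p = 0.0346). Its call was lost in edgeR's quasi-likelihood test (adjusted p = 0.0564), without *Nf1fl/fl;DhhCre* replicate 1 (limma-voom adjusted p = 0.114) or 3 (0.0942), and without double-knockout replicate 2 (0.0649) or 3 (0.0821). *Thbs3* was at 10.1, 10.7 and 10.1 CPM against 8.68, 6.49 and 8.57 CPM, without overlap but under the thresholds (-0.38, SE 0.21). The cartilage member *Comp* was at 0.970 to 1.92 CPM against 1.31 to 3.66 CPM.

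Among the other matricellular proteins 2 of 6 fell. *Postn* (chr3:54361109-54391037), periostin of fibroblasts and SCs, was at 1615, 934 and 1858 CPM against 487, 248 and 269 CPM (-2.15, SE 0.33, limma-voom adjusted p = 0.0113), and the call was lost without *Nf1fl/fl;DhhCre* replicate 1 (limma-voom adjusted p = 0.0541). *Ecm1* (chr3:95734147-95739569) was at 92.5, 107 and 94.5 CPM against 54.1, 34.8 and 37.5 CPM (-1.25, SE 0.18, limma-voom adjusted p = 0.0107). Neither gene overlapped between the groups. *Sparc*, which binds collagen and had the highest level per kilobase of exon among the members in both groups, was at 4643, 3426 and 5258 CPM against 3238, 2408 and 2506 CPM (-0.70, SE 0.19, limma-voom adjusted p = 0.0427), under 2-fold. Its share of the members' summed CPM was 14.9 to 19.9% in the first group and 23.7 to 27.2% in the second. *Spp1* (osteopontin) was at nearly the same level in both groups, 415, 468 and 502 CPM against 506, 399 and 493 CPM (0.01, SE 0.14, limma-voom adjusted p = 0.969). Ranked by CPM per kilobase of exon it was number 5 of the members in the *Nf1fl/fl;DhhCre* libraries and number 2 in the others. The matrilins were not called, *Matn2* at 637, 684 and 491 CPM against 606, 352 and 362 CPM and *Matn4* at 1.19 to 4.74 CPM against 2.22 to 2.87 CPM.

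Of the 9 small leucine-rich proteoglycans 3 fell and 1 rose, with a median log2 fold change of -0.91. *Dcn* (chr10:97479609-97518143), decorin, was at 3458, 4678 and 3255 CPM against 1949, 1468 and 1485 CPM (-1.21, SE 0.18, limma-voom adjusted p = 0.0107). *Bgn* (chrX:73483602-73495933), biglycan, the closest relative of decorin, was at 1584, 2478 and 2046 CPM against 623, 329 and 437 CPM (-2.16, SE 0.26, limma-voom adjusted p = 0.00769). In both, the highest library was replicate 2 of the *Nf1fl/fl;DhhCre* group, the replicate in which *Fn1*, *Tnc* and *Postn* were lowest. *Lum* (chr10:97565128-97572703), lumican, was at 1525, 1271 and 1908 CPM against 751, 355 and 442 CPM (-1.66, SE 0.28, limma-voom adjusted p = 0.0132), and its call was lost without *Nf1fl/fl;DhhCre* replicate 1 (limma-voom adjusted p = 0.0566). *Dcn* and *Lum* are neighbors on chromosome 10 with 46985 bases between them, and both fell.

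*Ogn* (chr13:49608046-49624501), osteoglycin or mimecan, was the only small leucine-rich proteoglycan that rose, at 182, 212 and 133 CPM against 584, 407 and 485 CPM (1.5, SE 0.21, limma-voom adjusted p = 0.00964). Every library labelled double knockout was above every other library, and the call was made in all 6 leave-one-out fits, which held for no other member that rose. By CPM per kilobase of exon *Ogn* was number 14 of the members in the *Nf1fl/fl;DhhCre* libraries and number 5 in the other group. It lies in a cluster of related genes on chromosome 13, 15.2 kb from *Omd*, which is 14.9 kb from *Aspn*, and in limma-voom neither of these was called. *Omd* (osteomodulin) was at 64.7, 68.9 and 52.9 CPM against 60.6, 47.6 and 52.4 CPM (-0.21, SE 0.16), and *Aspn* (asporin) at 20.1, 54.1 and 24.9 CPM against 19.5, 16.2 and 6.93 CPM (-1.26, SE 0.51, limma-voom adjusted p = 0.124). DESeq2 called *Aspn* lower (-1.23, adjusted p = 0.0439). *Ecm2* (chr13:49504810-49532789), a leucine-rich relative that is no member, lies on the other side of *Aspn* and fell in limma-voom (-1.07, adjusted p = 0.0345). The *Ecm2* call was made in 1 of 6 leave-one-out fits and was lost with sample quality weights. *Prelp* passed the adjusted p under 2-fold, at 435, 551 and 517 CPM against 343, 318 and 177 CPM (-0.90, SE 0.25, limma-voom adjusted p = 0.0463). *Podn* was at 137, 182 and 148 CPM against 143, 109 and 87.1 CPM and *Fmod* at 11.0, 18.4 and 5.70 CPM against 8.12, 5.26 and 4.29 CPM, both overlapping.

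**Figure D4:**
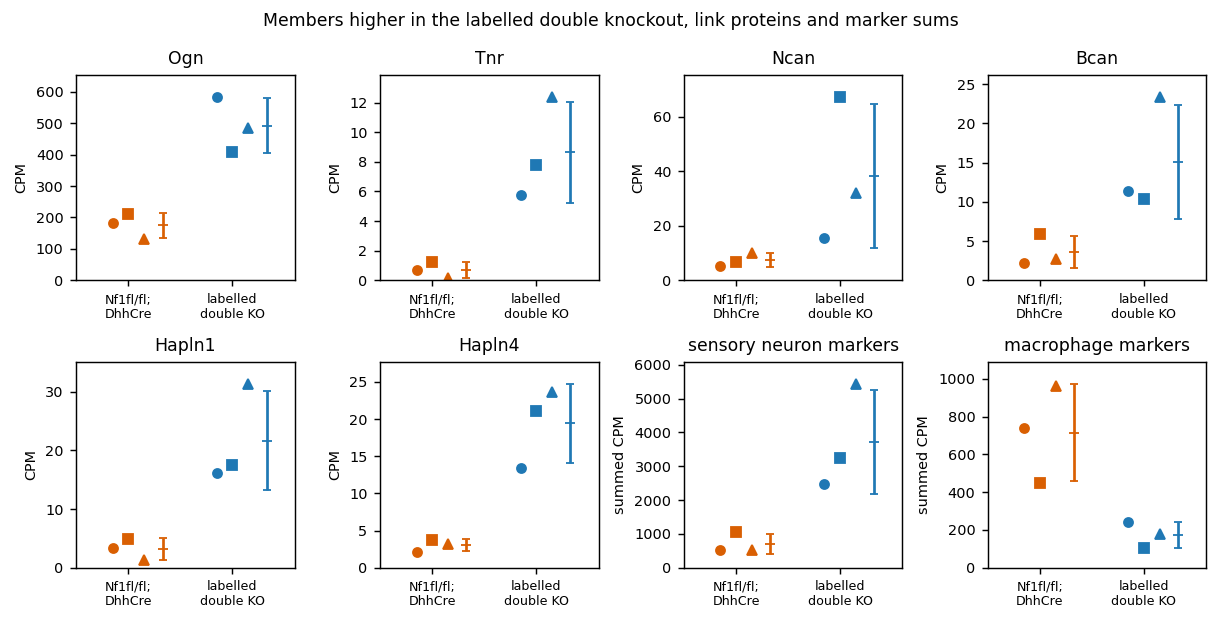
CPM per library on linear axes from 0 for the 4 members that rose, the link protein genes *Hapln1* and *Hapln4*, and the summed CPM of the sensory neuron and macrophage markers. Circles, squares and triangles are replicates 1, 2 and 3, and bars are the mean ± SD (n = 3). The libraries labelled double knockout lie above all *Nf1fl/fl;DhhCre* libraries for *Tnr*, *Ogn*, *Ncan* and *Bcan*.

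The hyalectans divided. *Vcan* (chr13:89655312-89742509), versican of loose connective tissue and embryonic nerve, was at 1160.1, 943 and 947 CPM against 447, 202 and 286 CPM (-1.78, SE 0.27, limma-voom adjusted p = 0.0108), and the call was lost without *Nf1fl/fl;DhhCre* replicate 1 (limma-voom adjusted p = 0.0518). *Bcan* (chr3:87987531-88000230), brevican, was at 2.22, 5.89 and 2.76 CPM against 11.4, 10.3 and 23.4 CPM (2.08, SE 0.51, limma-voom adjusted p = 0.0320). *Ncan* (chr8:70093085-70120873), neurocan, was at 5.34, 6.72 and 10.1 CPM against 15.5, 67.3 and 32.1 CPM (2.16, SE 0.62, limma-voom adjusted p = 0.0491). Brevican and neurocan, both known from brain matrix, were thus low in the *Nf1fl/fl;DhhCre* libraries and higher in each of the others, but their spread was wide. The *Bcan* call was lost without *Nf1fl/fl;DhhCre* replicate 1 (limma-voom adjusted p = 0.0997) or 3 (0.0913) and without double-knockout replicate 2 (0.0516). That of *Ncan* held in 1 of 6 leave-one-out fits and was lost with adjusted p from 0.0636 to 0.155 in the other 5 limma-voom fits. With all libraries kept it was also lost with DESeq2 size factors (limma-voom adjusted p = 0.0513) and with every gene that had a count (0.0504). *Hspg2*, perlecan of basement membranes, overlapped between the groups and was at 986, 692 and 1139.6 CPM against 746, 484 and 580.1 CPM (-0.63, SE 0.23, limma-voom adjusted p = 0.0933). *Acan* had 7, 4 and 0 counts against 3, 0 and 11 counts, and no difference was detectable at this depth.

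Hyalectans bind hyaluronan together with link proteins. Of 10 tested genes in a list of hyaluronan synthesis, binding and link proteins 2 rose and none fell in limma-voom. Over all genes 8.03% rose and 5.36% fell. *Tnfaip6* was called lower in edgeR's test, in DESeq2 and with sample quality weights. *Hapln1* was at 3.40, 4.94 and 1.28 CPM against 16.1, 17.6 and 31.3 CPM (2.89, SE 0.54, limma-voom adjusted p = 0.0160), and its call was lost without *Nf1fl/fl;DhhCre* replicate 1 (limma-voom adjusted p = 0.0604). *Hapln4* was at 2.15, 3.75 and 3.20 CPM against 13.5, 21.1 and 23.7 CPM (2.66, SE 0.38, limma-voom adjusted p = 0.0100). The other link protein genes were not called. *Hapln2* had a log2 fold change of -0.13 (limma-voom adjusted p = 0.929), and *Hapln3* was too low to test, at a mean of 0.573 CPM against 0.303 CPM. Replicate 3 labelled double knockout was the highest for *Tnr*, *Bcan*, *Hapln1* and *Hapln4*, and its sensory neuron sum of 5436 CPM was also the highest, while *Ncan* was highest in replicate 2. The astrocyte and satellite glia marker *Aqp4* was at 3.40, 4.34 and 1.22 CPM against 5.81, 27.6 and 17.7 CPM. Of the 4 markers of that list *Gfap* and *Kcnj10* fell and *Fabp7* rose, with sums of 409 to 470.3 CPM against 199 to 320 CPM. The calls of *Kcnj10* and *Fabp7* were lost without *Nf1fl/fl;DhhCre* replicate 1 (limma-voom adjusted p = 0.0564 and 0.0515), and *Aqp4* was called higher in edgeR's test, in DESeq2 and without double-knockout replicate 1. Oligodendrocyte markers were at or near 0, with a sum of at most 2.05 CPM in any library. The part of neurons and glia in these changes was not tested.

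Lists of enzymes and proteins that act on the members were shorter and gave fewer calls. Beside them, 5.36% of all genes tested were called lower and 8.03% higher. Of 7 cross-linking enzymes *Lox*, lysyl oxidase that cross-links elastin and collagen, rose from 39.9, 59.9 and 38.1 CPM to 203, 109 and 128 CPM (1.65, SE 0.28, limma-voom adjusted p = 0.0132), and its other 6 genes had fold changes below 0 without a call. The call of *Lox* was lost without *Nf1fl/fl;DhhCre* replicate 1 (limma-voom adjusted p = 0.0573), a fit with no call in either direction in this list. Of 27 enzymes of glycosaminoglycan synthesis, which build the chains of the proteoglycans, 4 fell (*Dse*, *Xylt1*, *Chsy1* and *Ext2*) and 2 rose (*Hs6st2* and *Chst15*), with a median log2 fold change of -0.09. *Hs6st2*, a heparan sulfate 6-O-sulfotransferase, was at 6.10, 11.9 and 4.23 CPM against 21.1, 18.6 and 37.8 CPM (1.86, SE 0.44, limma-voom adjusted p = 0.0288). *Xylt1*, which starts the chains, was at 11.6, 7.796 and 11.8 CPM against 5.49, 4.599 and 4.16 CPM (-1.11, SE 0.29, limma-voom adjusted p = 0.0380). *Dse*, which turns chondroitin into dermatan sulfate as found on decorin and biglycan, was at 27.6, 20.5 and 26.5 CPM against 13.3, 6.24 and 10.6 CPM (-1.35, SE 0.29, limma-voom adjusted p = 0.0217). *Chsy1*, a chondroitin synthase, was at 120.2, 64.9 and 78.3 CPM against 45.1, 36.2 and 37.5 CPM (-1.10, SE 0.25, limma-voom adjusted p = 0.0261). In none of these 4 did the groups overlap. *Ext2* was called in none of the leave-one-out fits, *Xylt1* in 1, *Chsy1* in 2, *Dse* and *Hs6st2* in 3 and *Chst15* in 4. No enzyme of this list fell in 3 of the 6 leave-one-out fits, those without *Nf1fl/fl;DhhCre* replicate 1 or 3 or double-knockout replicate 2.

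Of 20 tested matrix proteins related to the members 3 fell and 3 rose, where 5.36% of all genes fell and 8.03% rose. *Nid1*, nidogen of basement membranes, was at 2176, 2234 and 2320.4 CPM against 1341, 694 and 864 CPM (-1.27, SE 0.22, limma-voom adjusted p = 0.0143). *Epyc*, a leucine-rich relative of decorin, was at 33.7, 26.5 and 32.4 CPM against 11.4, 5.34 and 3.96 CPM (-2.32, SE 0.35, limma-voom adjusted p = 0.0107), and *Ecm2* fell by 1.07 on the log2 scale. The genes that rose were the testicans, proteoglycans related to *Sparc* and known from neurons. *Spock2* was at 201, 414 and 171 CPM against 793, 978 and 1736 CPM (2.19, SE 0.39, limma-voom adjusted p = 0.0147). *Spock1* was at 20.6, 37.7 and 19.8 CPM against 95.6, 113 and 198 CPM (2.37, SE 0.36, limma-voom adjusted p = 0.0111). *Spock3* was at 2.01, 7.38 and 3.46 CPM against 11.9, 16.1 and 31.7 CPM (2.28, SE 0.58, limma-voom adjusted p = 0.0360). As for all 9 sensory neuron markers, replicate 3 labelled double knockout was the highest in all 3 testicans. The part of neurons in these changes was not tested. None of the 6 calls in this list was made without *Nf1fl/fl;DhhCre* replicate 1. *Ecm2* was called in 1 of 6 leave-one-out fits and not with sample quality weights, and *Spock3* in 2 of 6.

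The calls depended on single libraries to different degrees. Of the members that fell, 10 were called in each of the 6 leave-one-out fits: *Fbln2*, *Efemp1*, *Fbn2*, *Emilin1*, *Thbs2*, *Thbs4*, *Dcn*, *Bgn*, *Ecm1* and *Ltbp1*. Without *Nf1fl/fl;DhhCre* replicate 1, 11 members were called lower and 1 higher, and the share of all genes called lower dropped to 1.13%. With double-knockout replicate 3 and its high *Runx1* value left out, 17 were called lower and 3 higher, and 2.96% of all genes were called lower. Exons of *Fn1* and *Ecm1* share 292 bases with *Apol7d* and 63 bases with *Mir7014*, and the authors' counting of reads there is not known. *Apol7d* lies on the strand opposite to *Fn1* and *Mir7014* on the same strand as *Ecm1*, and the strand setting is not given in the sources used here.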

How the data were processed

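Total RNA of mouse DRG/tumors was amplified with the NuGEN Ovation system, and libraries were prepared with Nextera XT. Per the submitters' processing notes the tools were CASAVA 1.4, TopHat, featureCounts and limma, with mm10 as the build. The authors deposited counts, whole numbers of reads per gene symbol and not normalized. The gene annotation and the handling of multiply aligned reads are not given in the sources used here. Titles and deposited file names disagree on the mouse within a genotype, which leaves the genotype unchanged. Replicates were numbered in label order and do not pair mice. Between libraries of one group, chi-square divided by its degrees of freedom was 22.8 to 142, far above sampling noise.

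Genes were kept with filterByExpr in edgeR 4.0.16 (minimum count 10, minimum total 15), scaled by TMM (factors 0.950 to 1.04) and fitted with limma-voom (limma 3.58.1, R 4.3.3), genotype only, with Benjamini-Hochberg adjustment over all genes tested. A call needed an adjusted p under 0.05 and more than 2-fold. The steps were tested on simulated data. As alternatives, DESeq2 1.42.0, edgeR's quasi-likelihood test, DESeq2 size factors, library size only, 2 other filters (CPM above 1 in at least 3 libraries, or every gene with a count), sample quality weights and the omission of each library were run. Gene positions and exon lengths come from GENCODE M21 (GRCm38), promoters from RefSeq. By rule, values in every library were given for members past both thresholds and for the most abundant member of each role group, and of the other lists the 4 called genes with the largest change. Values of further members, of *Nid1* and of some markers and the names of other called genes were added after they were seen. The members, role lists and marker lists were chosen with earlier results of these data known. Figures were drawn with matplotlib 3.10.9.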

Additional observations from a re-analysis of the deposited data

How the results depend on the processing

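With all 6 libraries kept, members called lower numbered 18 to 22 and members called higher 3 to 4 over the 7 alternatives. In these, 4.5 to 7.9% of all genes were called lower (7.9% in DESeq2, which gave the 22). In the limma-voom fit over all libraries 8.03% of all genes were called higher. Leaving out 1 library gave 11 to 20 lower and 1 to 4 higher members, and 181 to 1028 lower and 181 to 1304 higher genes in all. The fewest came without *Nf1fl/fl;DhhCre* replicate 1. In the same fits cross-linking enzymes gave 0 to 1 lower and 0 to 1 higher, glycosaminoglycan enzymes 0 to 3 lower and 0 to 2 higher, hyaluronan and link genes 0 to 1 lower and 1 to 2 higher, and related matrix proteins 0 to 3 lower and 0 to 4 higher. With library size only, 1 cross-linking enzyme was called lower and 1 glycosaminoglycan enzyme higher. Sample quality weights gave 1 lower cross-linking enzyme, and 1 hyaluronan gene was called lower in edgeR's test, in DESeq2 and with these weights. Log2 fold changes that changed sign belonged to 5 members that were not called. *Spp1* was at -0.068 with library size only and between -0.036 and 0.12 in leave-one-out fits. *Matn4* was at -0.23 in edgeR's test, -0.24 in DESeq2, -0.061 with library size only, -0.0025 with every gene kept and -0.19 with weights, and between -0.54 and 0.49 in leave-one-out fits. *Ltbp2* was at 0.47 with weights and between -0.58 and 0.74 without 1 library. Without 1 library *Fbln1* lay between -0.95 and 0.17 and *Tnxb* between -0.063 and 0.26. The cause was not tested. At 3 libraries a group, values resting on few counts (*Acan*, *Mfap2*, *Tnr*) are limited by depth. No paired analysis was possible because the replicate numbers were given in label order and do not pair mice.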
